A study of Mus musculus with 24 samples.

Results

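Krt5, Krt14, Krt1, Krt2, Krt10 and Krt77 are the 6 genes described here, taken by their GENCODE M21 symbols from the 39017 Ensembl gene IDs of the count table. They are the keratins of the epidermis between hair follicles, and all 6 passed the filter on low counts. RNA of whole dorsal skin was sequenced in 24 libraries from female C3H/HeJ mice of about 30 weeks, 6 libraries for each of 4 groups. AA mice had alopecia areata (AA) brought on by a skin graft from an affected mouse, had fully developed hair loss and were untreated; their sample names hold Vec12w, and whether a vehicle was given is not known. Systemic JAK1i mice had the same disease and ate Cmpd A, a JAK1-selective inhibitor, at about 100 mg/kg a day for 4 weeks, after which skin was taken by biopsy from the living animal. The 8w off Tx libraries are terminal samples taken 8 weeks after that treatment stopped. The study reports that hair loss returned by then, and its hair scores and follicle numbers differed widely between the mice of this group. Healthy mice were untreated C3H/HeJ mice of matched age, and Healthy, AA and 8w off Tx skin was sampled at week 12. By the study's methods the Systemic JAK1i and 8w off Tx libraries come from the same 6 mice, but the library letters A to F do not say which library belongs to which mouse, so they were compared as separate samples. By the study's hair scores, each of these mice still had some hair when treatment began, while AA mice had none. This starting difference cannot be told apart from treatment in comparisons of AA with Systemic JAK1i or 8w off Tx. Week of sampling and live against terminal sampling cannot be told apart from treatment in any comparison with Systemic JAK1i. The label is dorsal skin, and defining epidermal genes were present in every library, with summed levels of the 6 keratins of 8021 to 21850 CPM (library counts scaled to a common depth with TMM factors).

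Keratins are the proteins of the intermediate filaments that give epithelial cells their strength. A filament is built from pairs of a type I and a type II keratin. Basal keratinocytes, which divide on the basement membrane, use the type II keratin Krt5 with the type I keratin Krt14. When a cell leaves the basal layer it switches to the type II keratin Krt1 with the type I keratin Krt10, and Krt2 and Krt77 are further type II keratins of suprabasal layers. Krt2 is known in the mouse as a keratin of the upper layers in ear, tail and sole skin. The basal pair is also made in the outer root sheath of the hair follicle and in sebaceous glands, so their RNA in whole skin is not from the interfollicular epidermis alone.

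The 4 type II genes lie in the keratin cluster of chromosome 15 and the 2 type I genes in that of chromosome 11, all on the minus strand of GRCm38. Krt5 is at chr15:101707070-101712898, Krt2 at chr15:101810689-101818169, Krt1 at chr15:101845426-101850794 and Krt77 at chr15:101858731-101869705, each with 9 exons in the transcript read here. Krt10 is at chr11:99385254-99389364 and Krt14 at chr11:100203162-100207548, each with 8 exons. Sequence shared with other genes limits what reads of 76 bases can tell apart: 5.79% of the 76-base windows of the Krt14 transcript occur unchanged in Krt16, and 5.04% of those of Krt5 occur in Krt6a, Krt6b or predicted genes. Krt1, Krt2, Krt10 and Krt77 had no such window. Krt10 overlaps the antisense gene Gm11940, and the strand setting of the counting is not given in the sources used here.

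RefSeq windows of 250 bases before to 50 after the start, on GRCm38.p6, were matched by symbol for 5 of the 6 genes, all but Krt1. The Krt14 window lies inside the gene as GENCODE draws it, so it is not described. The windows are shown for Krt10 and Krt77, whose levels followed each other most closely among these keratins, and for Krt2, which followed none of them, with each sense-strand match of TATANA in capitals.
Krt10, chr11:99389315-99389614, minus strand: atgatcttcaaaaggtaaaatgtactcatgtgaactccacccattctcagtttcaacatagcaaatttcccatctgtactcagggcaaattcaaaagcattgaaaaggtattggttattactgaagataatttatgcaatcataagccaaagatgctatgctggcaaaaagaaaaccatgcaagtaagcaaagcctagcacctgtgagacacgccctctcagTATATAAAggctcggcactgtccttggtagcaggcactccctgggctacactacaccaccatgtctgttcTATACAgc
Krt77, chr15:101869656-101869955, minus strand: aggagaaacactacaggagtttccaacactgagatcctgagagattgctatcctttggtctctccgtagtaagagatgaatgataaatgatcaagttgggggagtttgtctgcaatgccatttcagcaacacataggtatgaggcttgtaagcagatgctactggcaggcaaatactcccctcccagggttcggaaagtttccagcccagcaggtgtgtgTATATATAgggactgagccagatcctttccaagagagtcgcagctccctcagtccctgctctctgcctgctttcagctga
Krt2, chr15:101818120-101818419, minus strand: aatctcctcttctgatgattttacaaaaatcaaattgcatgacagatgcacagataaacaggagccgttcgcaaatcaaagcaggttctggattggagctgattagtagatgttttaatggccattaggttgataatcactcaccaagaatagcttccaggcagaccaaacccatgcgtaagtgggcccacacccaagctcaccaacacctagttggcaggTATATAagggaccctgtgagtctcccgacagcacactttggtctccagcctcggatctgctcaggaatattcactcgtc
All 3 windows hold TATANA within the 40 bases before the start, first at position -28 in Krt10, -30 in Krt77 and -29 in Krt2, counted from the start. TATANA on either strand, overlapping matches included, is present in 24.7% of the 32851 promoter windows of the table. The STAT-type motif TTCNNNGAA (8.3% of all windows), the AP-1 motif TGANTCA (7.81%) and the AP-2 motif GCCNNNGGC (16.6%) were each absent from these letters in the windows of Krt5, Krt2, Krt10 and Krt77 on both strands. CACCC, bound by Krüppel-like factors and present in 57.5% of all windows, occurs in the windows of Krt5, Krt2 and Krt10, and CCAAT (37.4% of all windows) in those of Krt2 and Krt10, both searched on both strands.

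Library totals ran from 3444193 to 11233020 counts, and the 6 keratins together took 1.34% ± 0.29 of counts in AA, 1.07% ± 0.10 in Systemic JAK1i, 1.11% ± 0.30 in 8w off Tx and 1.35% ± 0.37 in Healthy skin (SD, n = 6 each). Several libraries stood apart. In 8w off Tx, libraries A and E had summed hair cortex and cuticle genes of 74.9 and 20.3 CPM, against 1465 to 3423 CPM in the other 4 libraries of that group. Healthy A and E had summed skeletal muscle genes of 1309 and 1112 CPM, against 12037 to 66286 CPM in the other 4 Healthy libraries. Healthy B had the highest value of its group for each keratin other than Krt2. Group comparisons that rest on these libraries are given with and without them. Spreads, ratios and correlations are given with all libraries.

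Per length, in the deposited TPM (transcript abundance per length and depth), the order of the keratins differed between AA and Healthy skin. In AA skin the means were 798 ± 171 for Krt14, 554 ± 130 for Krt10, 396 ± 106 for Krt77, 363 ± 106 for Krt5, 351 ± 92.4 for Krt1 and 0.36 ± 0.26 for Krt2 (SD, n = 6). Krt14 stood first, and the neighbouring means of Krt77, Krt5 and Krt1 were within 1 SD of each other. In Healthy skin the means were 758 ± 147 for Krt77, 749 ± 136 for Krt10, 627 ± 154 for Krt14, 474 ± 69.8 for Krt5, 202 ± 64.2 for Krt1 and 5.85 ± 5.95 for Krt2. There the means of Krt77 and Krt10, and of Krt10 and Krt14, differed by less than 1 SD. With all 6 libraries of each group, Systemic JAK1i libraries were the most alike, with coefficients of variation in CPM of 11.6 to 15.3% for the 5 abundant keratins, against 28.5 to 50.1% in Healthy skin. Healthy B widened the Healthy spread. It had 3432 CPM of Krt5, against 1626 to 2090 CPM in the other Healthy libraries. For Krt1 it had 2231 CPM, against 802 to 1057 CPM. Coefficients without Healthy B are not given here, so the treated group cannot be called more uniform apart from that library. All comparisons between groups below use CPM and counts.

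**Figure D1:**
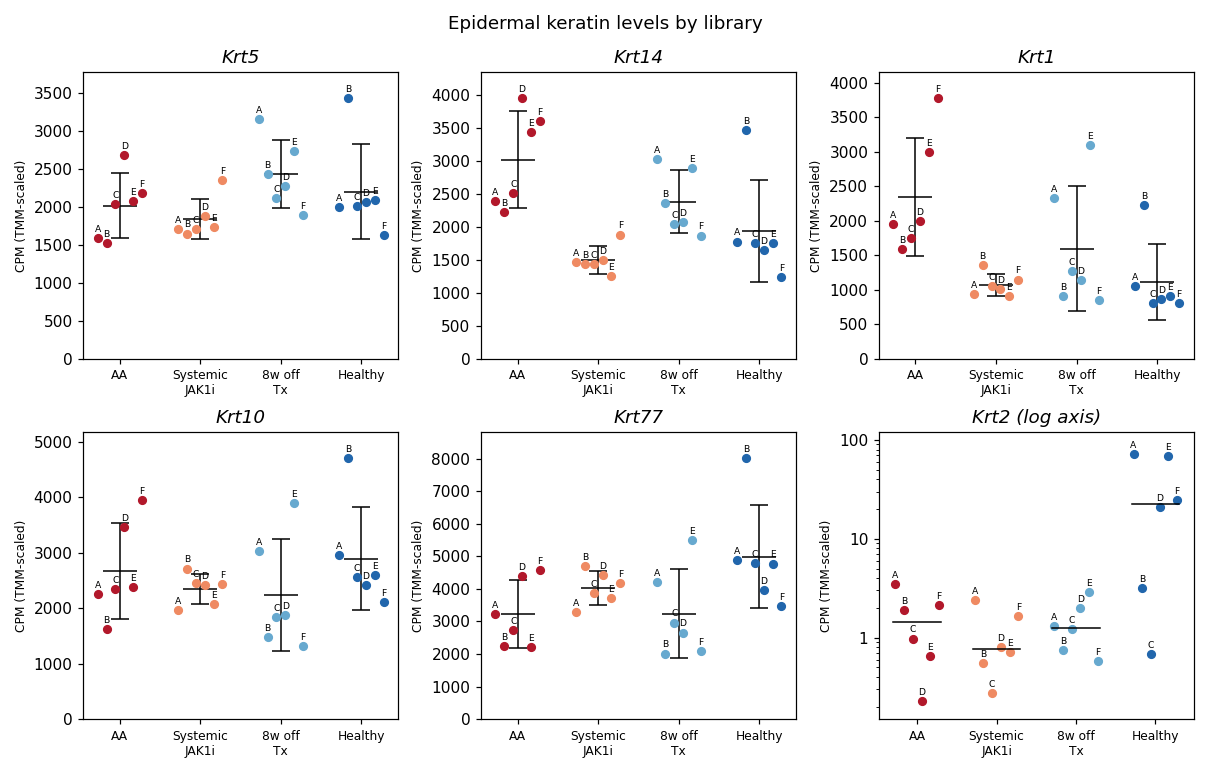
CPM of the 6 keratins in each of the 24 libraries, with library letters; black marks are the mean ± SD of 6 libraries, and for Krt2, on a log axis, the median. Krt14 and Krt1 of every AA library lie above every Systemic JAK1i library, and Krt2 of Healthy B and C lies within the range of the other groups.

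Between AA and Healthy skin, Krt14 and Krt1 rose and Krt2 and Krt77 fell, while Krt5 and Krt10 did not pass the test. These 4 of 6 calls (edgeR quasi-likelihood test, Benjamini-Hochberg adjusted p below 0.05) stand beside 40.2% of all 16248 genes tested, with 20.9% higher and 19.3% lower, so calls were frequent in this comparison whatever the gene. Fewer keratinocytes and less RNA per keratinocyte cannot be told apart in whole skin.

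Krt14, the type I keratin of the basal pair, had 2396, 2225, 2511, 3955, 3439 and 3604 CPM in AA libraries A to F, against 1779, 3464, 1754, 1652, 1760 and 1240 CPM in Healthy libraries A to F. All AA libraries were above 5 of the 6 Healthy ones, and Healthy B lay among the AA values. Its log2 fold change was 0.64 ± 0.20 (SE; adjusted p = 0.013). Without Healthy A and E the value was 0.58 with an adjusted p of 0.057, and in a fit of these 2 groups alone 0.62 with 0.055. The stress keratin Krt16, which shares 5.79% of the 76-base windows of Krt14, averaged 707 ± 404 CPM in AA and 48.9 ± 66.7 CPM in Healthy skin. A read from a shared window cannot by itself be told apart between the 2 genes, though the other read of its pair may do so.

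Krt5, the partner of Krt14, averaged 2015 ± 425 CPM in AA and 2201 ± 626 CPM in Healthy skin. The groups overlapped, and the log2 fold change of -0.13 had a 95% interval of -0.47 to 0.21 (adjusted p = 0.57). Without Healthy B the value was 0.04, so its sign rests on that library. Of the 76-base windows of Krt5, 5.04% occur in Krt6a, Krt6b or predicted genes. A read from those windows cannot by itself be told apart between the genes, though the other read of its pair may do so. Krt6a and Krt6b rose in AA.

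Krt1, the early suprabasal type II keratin, had 1951, 1590, 1753, 1997, 2997 and 3778 CPM in AA libraries A to F, against 1057, 2231, 802, 865, 910 and 802 CPM in Healthy libraries A to F. Every AA value was above 5 of the 6 Healthy values, and Healthy B was again among the AA values. The log2 fold change was 1.08 ± 0.31 (adjusted p = 0.0079), and it passed whichever library was left out, with adjusted p up to 0.029. Krt10, the type I partner of Krt1, averaged 2671 ± 865 CPM in AA and 2892 ± 928 CPM in Healthy skin, and its log2 fold change of -0.11 had an interval of -0.62 to 0.39 (adjusted p = 0.75).

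Krt77, a suprabasal keratin close to Krt1 in the gene cluster, had 3230, 2245, 2743, 4392, 2200 and 4576 CPM in AA libraries A to F, against 4877, 8017, 4803, 3975, 4779 and 3475 CPM in Healthy libraries A to F. The groups overlapped through AA D and F. The log2 fold change of -0.63 ± 0.24 passed narrowly (adjusted p = 0.043), and the call was lost in 8 of the 12 fits that left out 1 AA or Healthy library: AA A, B, C or E, or Healthy A, B, C or E. The value in those 12 fits was between -0.76 and -0.44, with the smallest change without Healthy B (adjusted p = 0.13).

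Krt2 had 3.51, 1.91, 0.98, 0.23, 0.65 and 2.12 CPM in AA libraries A to F, from 1 to 31 counts. Healthy libraries A to F had 71.8, 3.16, 0.68, 20.8, 68.5 and 24.5 CPM, from 4 to 505 counts. Healthy skin was thus divided, with 4 libraries far above all AA libraries and B and C within the AA range. The log2 fold change was -4.18 ± 0.78 (adjusted p = 1.4e-04), an 18.2-fold lower fitted level in AA. Without Healthy A and E, the 2 highest libraries, it was -2.84 (adjusted p = 0.0031), and without Healthy B and C it was -4.74. By limma-voom, which works on log values, it was -3.18 and did not pass (adjusted p = 0.095).

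The 2 Healthy libraries with the highest Krt2 were the 2 with the lowest summed level of the 10 skeletal muscle genes, all of which were detected in each group. That level was 16899 to 47180 CPM in AA and 1112 to 66286 CPM in Healthy skin, and the median log2 fold change of the 10 genes was -0.16. Healthy D and F, with Krt2 at 20.8 and 24.5 CPM, had 48778 and 66286 CPM of muscle genes, and Healthy C, with Krt2 at 0.68 CPM, had 12037 CPM. The part of muscle or of sampled site in the Krt2 result was not tested.

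**Figure D2:**
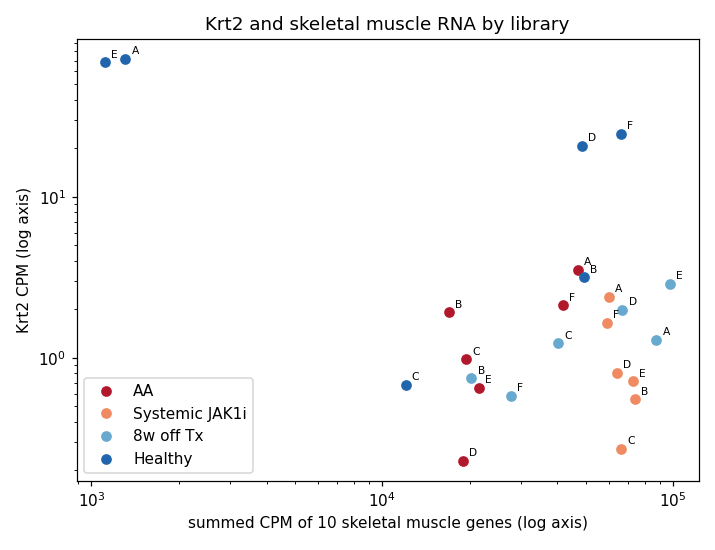
Krt2 CPM against the summed CPM of 10 skeletal muscle genes in each of the 24 libraries, both on log axes, with library letters. Healthy A and E lie alone at the upper left, Healthy D and F keep over 20 CPM of Krt2 at high muscle levels, and the other 20 libraries lie at or below 3.51 CPM.

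Other cell types also differed between AA and Healthy skin. All 13 hair cortex and cuticle genes tested rose, with summed levels of 1042 to 4470 CPM in AA and 6.85 to 163 CPM in Healthy skin, and all 6 melanocyte genes rose, at 33.3 to 295 against 18.4 to 66.3 CPM. All 8 adipocyte genes fell, at 225 to 979 CPM in AA and 494 to 2364 CPM in Healthy skin, and so did all 6 endothelial genes, at 40.7 to 117 against 136 to 292 CPM. Of the structures that also make the basal pair, the list for outer root sheath and bulge had 5 of 8 genes lower, at 389 to 980 CPM in AA and 1188 to 2519 CPM in Healthy skin. Krt15, a keratin of basal and bulge cells, made up much of that sum. It averaged 223 CPM in AA and 1472 CPM in Healthy skin. The list thus says little of the outer root sheath itself. The sebaceous gland had 1 of 8 higher and 4 lower, at 853 to 3398 against 1434 to 8359 CPM. Of 10 inner root sheath genes 9 rose and 1 fell, at 6091 to 18032 against 205 to 831 CPM, and 4 of 8 T cell genes rose, at 30.3 to 128 against 16.5 to 36.5 CPM. The part of these shares of RNA in the keratin values was not tested.

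Between Systemic JAK1i and AA skin, the 2 keratins that were higher in AA fell, and the other 4 did not pass. Krt14 had 1463, 1442, 1434, 1499, 1260 and 1884 CPM in Systemic JAK1i libraries A to F, all below the lowest AA library at 2225 CPM. Its log2 fold change was -1.01 ± 0.20 (edgeR, adjusted p = 2.6e-04), a level 2.02-fold lower than in AA. Krt1 had 940, 1354, 1051, 1012, 907 and 1147 CPM in Systemic JAK1i libraries A to F, all below the lowest AA library at 1590 CPM, with a log2 fold change of -1.13 ± 0.31 (adjusted p = 0.0046). These 2 calls stand beside 47.7% of all genes called, 24.8% lower and 26.9% with no overlap between the libraries of the 2 groups. With 1 library left out at a time, the change was -1.09 to -0.92 for Krt14 and -1.22 to -0.94 for Krt1.

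Krt5 averaged 1835 ± 263 CPM in Systemic JAK1i and 2015 ± 425 CPM in AA skin; its log2 fold change was -0.13, with an interval of -0.48 to 0.21. Krt10 averaged 2343 ± 272 and 2671 ± 865 CPM in Systemic JAK1i and AA skin, and Krt77 averaged 4034 ± 515 and 3231 ± 1042 CPM; their log2 fold changes of -0.19 and 0.32 did not pass (adjusted p = 0.55 and 0.28). Krt2 remained at 2 to 16 counts a library in Systemic JAK1i, or 0.27 to 2.40 CPM, and its log2 fold change against AA of -0.70 had an interval of -2.66 to 1.26, too wide at this depth to speak of a difference in either direction. In this comparison all 13 hair cortex genes fell, to 12.8 to 118 CPM in sum in Systemic JAK1i, and all 8 adipocyte and 6 endothelial genes rose. The outer root sheath and bulge genes had 1701 to 2073 CPM in Systemic JAK1i and 389 to 980 CPM in AA skin (4 of 8 rose, 1 fell), and skeletal muscle genes had 59413 to 74111 against 16899 to 47180 CPM (2 of 10 rose), in both cases with no overlap. Of the sebaceous gland genes 7 of 8 rose, and of the T cell genes 7 of 8 fell. The part of these in the falls of Krt14 and Krt1 was not tested.

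Between Systemic JAK1i and Healthy skin, Krt2 was the 1 keratin called by edgeR. It was lower by 4.88 ± 0.80 on the log2 scale, a fitted level 29.5-fold lower (log2 fold change -4.88, edgeR adjusted p = 0.0051). That is 1 of 6 keratins beside 1.05% of all genes called and 0.535% called lower. Without Healthy A and E it was -3.52 with an adjusted p of 0.054, and only 12 genes of the table passed, against 170 with all libraries. Without Healthy B and C it was -5.44. By limma-voom it was -3.85 and did not pass (adjusted p = 0.15). Skeletal muscle genes had 59413 to 74111 CPM in Systemic JAK1i and 1112 to 66286 CPM in Healthy skin, and their part in the Krt2 result was not tested. Krt2 of Healthy C, at 0.68 CPM, was below 4 of the 6 Systemic JAK1i libraries. The other 5 keratins had log2 fold changes of -0.38 (Krt14) to -0.06 (Krt1), with adjusted p-values of 0.34 to 0.96. The interval for Krt14 was -0.78 to 0.03 and that for Krt1 was -0.69 to 0.58.

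Between 8w off Tx and Healthy skin, Krt2 was again the 1 keratin called by edgeR, at 1.30, 0.74, 1.23, 1.98, 2.88 and 0.58 CPM in 8w off Tx libraries A to F. Its log2 fold change was -4.43 ± 0.81 (edgeR, adjusted p = 1.8e-04), -3.07 without Healthy A and E and -4.77 without 8w off Tx A and E. By limma-voom it was -3.28 and did not pass (adjusted p = 0.095). The share of all genes called was 32.7%, with 15.7% lower. Krt77 averaged 3240 ± 1365 CPM in 8w off Tx and 4988 ± 1586 CPM in Healthy skin, and its log2 fold change of -0.62 just missed the threshold (adjusted p = 0.052). The log2 fold changes of Krt5, Krt14, Krt1 and Krt10 were 0.14, 0.29, 0.52 and -0.37, none past it. All 8 adipocyte and 6 endothelial genes and 7 of 8 fibroblast genes were lower in 8w off Tx than in Healthy skin, and all 13 hair cortex genes were higher. Their part in the keratin values was not tested.

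Libraries A and E of 8w off Tx weighed on this comparison. Krt77 had 4208 and 5506 CPM in 8w off Tx A and E and 2014 to 2966 CPM in B, C, D and F. Krt10 had 3032 and 3889 CPM in A and E and 1321 to 1874 CPM in B, C, D and F. Without A and E, Krt77 was lower than in Healthy skin with a log2 fold change of -1.04 (adjusted p = 0.0018) and Krt10 with -0.84 (adjusted p = 0.0074), so that 3 of the 6 keratins passed. These 2 libraries had the highest Krt77 and Krt10 of their group, so leaving them out lowers the group by construction. Healthy B weighed on it too, since without it Krt14 (0.54, adjusted p = 0.013) and Krt1 (0.84, adjusted p = 0.024) were higher in 8w off Tx than in Healthy skin. Krt77 also passed without Healthy D or F, at -0.68 and -0.71.

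Between 8w off Tx and AA skin, 0 of the 6 keratins were called, 0 had an unadjusted p below 0.05 by edgeR or DESeq2 and 1 did by limma-voom, beside 1.37% of all genes called. The intervals allow sizeable differences: Krt1, at 1597 ± 908 CPM in 8w off Tx and 2344 ± 857 CPM in AA, had a log2 fold change of -0.55 with an interval of -1.19 to 0.08. Krt14, at 2380 ± 479 and 3022 ± 731 CPM in 8w off Tx and AA, had -0.34 with an interval of -0.75 to 0.06.

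Between 8w off Tx and Systemic JAK1i skin, which are the same mice off and on treatment, Krt14 rose and no other keratin passed in the fit of all libraries. Krt14 had 3028, 2362, 2050, 2079, 2895 and 1869 CPM in 8w off Tx libraries A to F. All but F were above the highest Systemic JAK1i library at 1884 CPM. The log2 fold change was 0.67 ± 0.20 (edgeR, adjusted p = 0.011), beside 35.9% of all genes called and 19.4% called higher. On log2(TPM + 1) values Krt14 was at 0.44 after centring on library medians (limma, adjusted p = 0.043) and at -0.51 without centring, where the median of all genes was itself at -0.92. Without 8w off Tx A and E it was 0.49 with an edgeR adjusted p of 0.078 (0.018 without Healthy B as well), again a lower value by construction. The fit without A and E called 1 keratin, and that one was lower in 8w off Tx. Leaving out Healthy B as well gave 1 higher and 2 lower. Krt5 had a log2 fold change of 0.41 with an adjusted p of 0.059, and passed without 8w off Tx F (0.47, adjusted p = 0.04) or without Systemic JAK1i F (0.49, adjusted p = 0.03). Krt1, at 849 to 3090 CPM in 8w off Tx and 907 to 1354 CPM in Systemic JAK1i, did not pass (0.58, adjusted p = 0.15).

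**Figure D3:**
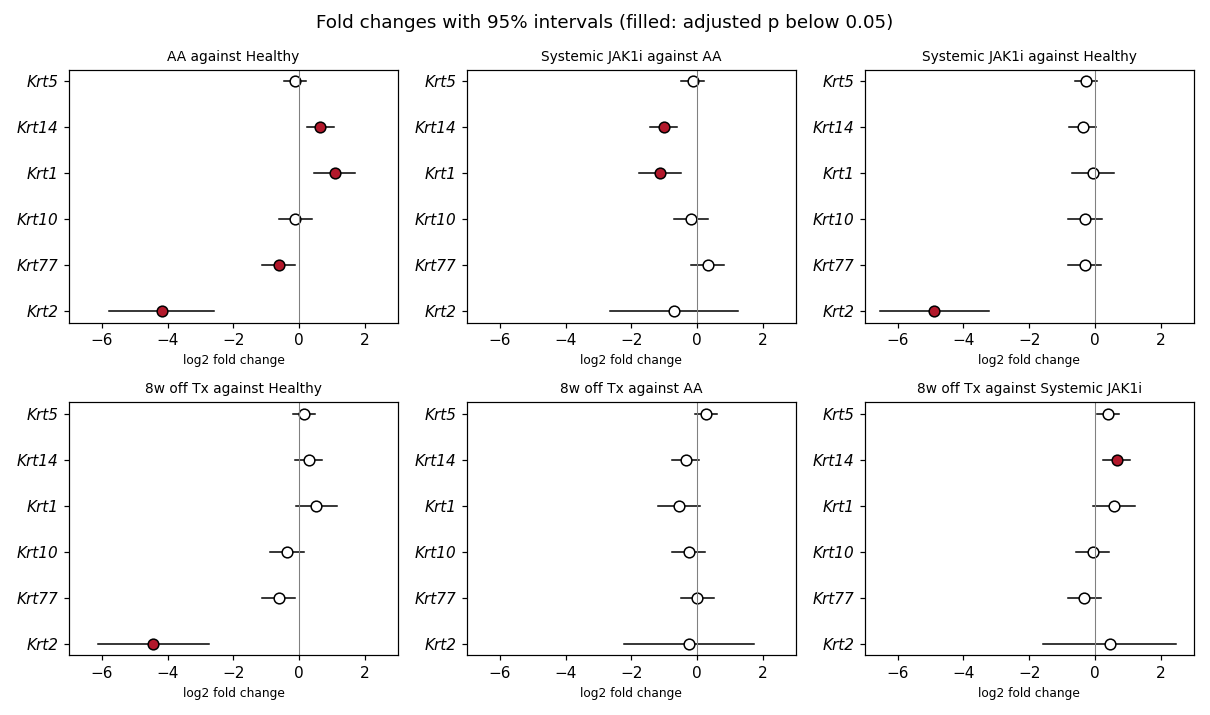
Log2 fold changes of the 6 keratins in the 6 comparisons, with 95% intervals from the edgeR fit; filled points passed at an adjusted p below 0.05. Krt2 is far to the left in the 3 comparisons with Healthy, Krt14 and Krt1 change sides between AA against Healthy and Systemic JAK1i against AA, and Krt5 and Krt10 are open points throughout.

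Ratios between 2 keratins of the same library do not depend on how libraries are scaled to each other, so they are given here as descriptions, in TPM and as geometric means of 6 libraries. The basal ratio of Krt5 to Krt14 was 0.45 in AA, 0.83 in Systemic JAK1i, 0.68 in 8w off Tx and 0.77 in Healthy skin. Its 6 AA values, from 0.41 to 0.56, lay below all values of the other groups, the lowest of which was 0.61 in 8w off Tx E. The ratio in AA skin was thus separate from that of every other library even though Krt14 itself overlapped between AA and Healthy. How often ratios of other gene pairs separate in this way was not computed, for this ratio or those below. Krt14 shares 5.79% of its 76-base windows with Krt16, and Krt5 shares 5.04% with Krt6a, Krt6b or predicted genes. The part of these shared windows in the ratio was not tested.

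Among the suprabasal keratins, Krt1 to Krt10 was 0.63 in AA, 0.32 in Systemic JAK1i, 0.46 in 8w off Tx and 0.26 in Healthy skin. The AA values ran from 0.41 to 0.91 and the Healthy values from 0.23 to 0.34. Krt77 to Krt1 ran the other way, at 1.13 in AA, 3.11 in Systemic JAK1i, 1.75 in 8w off Tx and 3.82 in Healthy skin. All 6 8w off Tx values, from 1.46 to 2.02, lay below the Systemic JAK1i values of 2.87 to 3.61 and the Healthy values of 2.95 to 4.86. Libraries A and E of 8w off Tx, which lacked the hair gene levels of their group, were the lowest of the 6 for this ratio, at 1.464 and 1.456, below every Systemic JAK1i and Healthy value.

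Krt10 to Krt14, a suprabasal to basal ratio of the type I keratins, was 0.69 in AA, 1.30 in Systemic JAK1i, 0.75 in 8w off Tx and 1.21 in Healthy skin. The AA values, up to 0.88, lay below all Systemic JAK1i and Healthy values, the lowest of which was 1.08. In 8w off Tx, library E stood at 1.13 and the other 5 at 0.53 to 0.83. Krt1 to Krt5, the same ratio for the type II keratins, was 0.97 in AA, 0.50 in Systemic JAK1i, 0.50 in 8w off Tx and 0.41 in Healthy skin, so the suprabasal to basal ratio was lower in AA than in Healthy skin when taken over the type I genes and higher when taken over the type II genes.

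**Figure D4:**
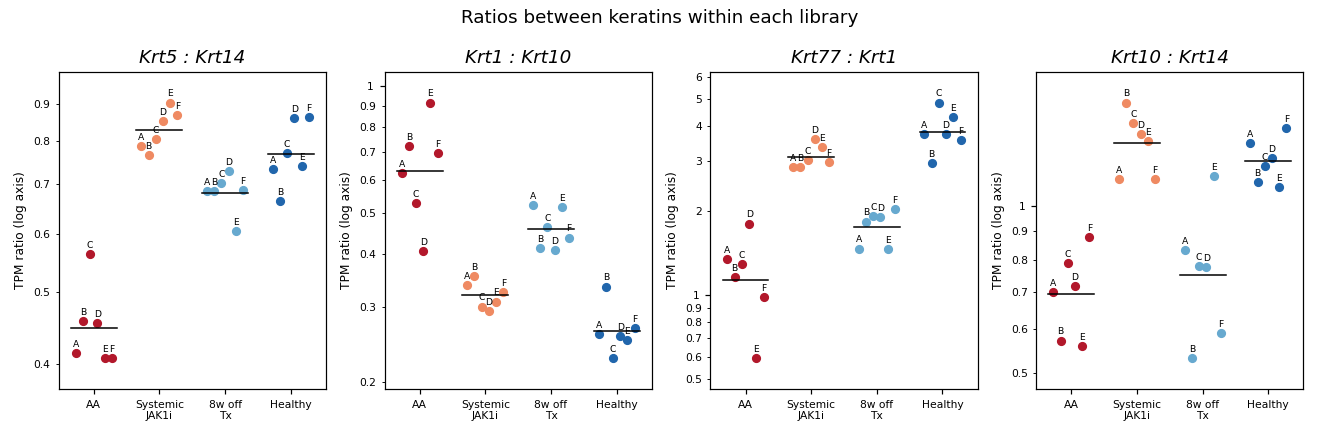
TPM ratios of 4 pairs of keratins in each of the 24 libraries, on log axes, with library letters; black lines are geometric means of 6 libraries. Krt5 to Krt14 of all AA libraries lies below every other library, and Krt77 to Krt1 of AA and 8w off Tx lies below Systemic JAK1i and Healthy.

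Within groups, the abundant keratins went up and down together from library to library. Over deviations from the group means of log2 CPM (24 libraries, all genes of a library sharing its RNA and depth), Pearson's r was 0.95 for Krt10 with Krt77, 0.95 for Krt5 with Krt14 and 0.90 for Krt1 with Krt10. The other pairs among these 5 genes had r between 0.67 and 0.81. Krt2 had r between -0.27 and 0.01 with the other 5. Across all 24 libraries, with group differences left in, r fell away for the pairs whose members differed in their group pattern: it was 0.06 for Krt14 with Krt77 and 0.19 for Krt1 with Krt77, against 0.72 and 0.81 within groups.

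The genes most like each keratin over the 24 libraries, by Pearson's r of log2 CPM, were found by a search over the whole table. Krt10 was closest to Kprp, a proline-rich keratinocyte protein, and to the keratin Krt78 and Lrrc28, at 0.95, 0.94 and 0.93. Krt77 was closest to Sbsn (suprabasin), Ankrd35 and Flg2, a filaggrin-like protein, at 0.96, 0.95 and 0.95. Krt1 was closest to Calm4, a calmodulin-like protein, Il1f8, an IL-36 cytokine, and Slc6a20a, an amino acid transporter, at 0.95, 0.95 and 0.95. Krt14 was closest to Lce1f, a late cornified envelope protein, Pkp1, a desmosomal plakophilin, and Tmem40, at 0.95, 0.94 and 0.94. Krt5 had lower values, with Plpp2 at 0.89, Atg9a at 0.83 and Acvr1b, an activin receptor, at 0.83, and Krt2 lower ones still, with Abca4, Kir3dl2 and H2-Ob at 0.73, 0.73 and 0.73. These values describe likeness in these libraries only.

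The other epidermal genes measured beside the 6 keratins are given for AA against Healthy skin, where 40.2% of all genes were called. The 4 stress keratins, which are made in wounded or inflamed epidermis and in follicle sheaths, all rose (median log2 fold change 3.26, against 0.00 over all genes): Krt16 by 3.85, Krt6b by 5.17, Krt6a by 2.66 and Krt17 by 0.96 on the log2 scale. Of 9 other epithelial keratins tested, Krt79 rose (0.97) and Krt24 (-4.68), Krt15 (-2.72) and Krt23 (-0.43) fell; Krt15 is known as a keratin of basal and bulge cells, and had 223 ± 128 CPM in AA and 1472 ± 417 CPM in Healthy skin. In Systemic JAK1i against AA all 4 stress keratins fell and Krt15 rose by 2.66. In Systemic JAK1i against Healthy, Krt16 was at -0.58 (edgeR, adjusted p = 0.67).

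Of 12 genes that fix basal cells to the basement membrane, 2 rose in AA and 7 fell, beside 20.9% of all genes called higher and 19.3% called lower. The falls included Dst (-1.13), a hemidesmosome protein, and Lamb3 (-0.90), a laminin chain. Plec, which encodes plectin, was at -0.27 and did not pass (adjusted p = 0.051). Itga3 (0.63), an integrin chain, was among those that rose. Of 14 desmosome genes 5 were called, a share near that of all genes (40.2%): 4 rose, Dsg1b (0.75), Dsc2 (1.19), Pkp1 (0.44) and Pkp3 (0.33), and Dsg1a (-0.42) fell; the most abundant, Dsp, was at -0.01.

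Of 30 cornified envelope and upper layer genes tested, 10 rose and 3 fell in AA against Healthy skin, with a median log2 fold change of 0.22, and the share called was near the 40.2% of all genes. Tgm3 (2.34) and Rptn (2.14), a transglutaminase and an envelope precursor, had the smallest adjusted p-values. The 3 that fell were Flg2 (-0.84), Sbsn (-0.55) and Lce1m (-1.06), of which Flg2 and Sbsn were among the 3 genes most like Krt77. Of 20 regulators of epidermal differentiation, 7 rose and 2 fell, again a share near that of all genes: Tfap2a (0.91), an AP-2 factor, was among those that rose, the 2 that fell were Gata3 (-0.38) and Cebpa (-0.26), and Trp63, which encodes the p63 factor of basal cells, was at -0.08 (adjusted p = 0.53). Flg, Lce1d and Krt85 were not analysed here. In 8w off Tx against Healthy, 32.7% of all genes were called and 15.7% were called lower. Beside this, 3 of 4 stress keratins were higher and 3 of 12 basal attachment genes lower. Of 30 upper layer genes 3 were higher and 6 lower, and of 14 desmosome genes 2 were higher and 3 lower. These last 3 lists had no more calls than the share of all genes would give, or close to it. Of 20 regulators 9 were higher and 2 lower, and of 9 other epithelial keratins 2 were higher and 4 lower.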

How the data were processed

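The authors sequenced ribosome-depleted total RNA of low integrity, without fragmentation, as paired reads of 76 bases. The submitters' processing notes name HISAT2 2.0.1 and featureCounts 1.4.4 and the mm10 (GRCm38) build. The deposited count table holds whole-number counts per gene as the authors made them, and the deposited TPM table covers the same genes; the tool behind the TPM is not given in the sources used here. In each of these, 6 columns matched no sample and were not used. Symbols came from GENCODE M21 (37607 of 39017 IDs matched).

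Counts were filtered with filterByExpr (minimum count 10), TMM-normalized and fitted with edgeR 4.0.16 (R 4.3.3; glmQLFit and glmQLFTest) in 1 design of 4 groups, for 6 comparisons; p-values were adjusted by Benjamini-Hochberg over 16248 genes. Standard errors and 95% intervals came from the same fit. The labels do not tie libraries to single mice, so p-values measure the spread between these samples; low counts limit Krt2. The edgeR, DESeq2 and limma tests were tested on simulated counts for AA against Healthy. Alternatives used DESeq2 1.42.0 and limma 3.58.1, other scalings and filters, log2(TPM + 1) and log2(TPM + 0.1), and left-out libraries; TPM centred on library medians, leaving out Healthy B with 8w off Tx A and E, and leaving out Healthy B and C were added after seeing the data. Correlations used log2 CPM with a prior count of 2.

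All 6 keratins are named; from other lists, the 2 genes with the smallest adjusted p in AA against Healthy and the 2 with the highest mean CPM, in part, with members that account for small counts. Some genes that this rule names are not reported here. Of the genes most like each keratin the first 3 with a mean log2 CPM of at least 1 are given. The keratins and lists were chosen with earlier results of these data known.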

Additional observations from a re-analysis of the deposited data

Results flagged for a closer look

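Among 56 sets of 6 libraries examined for a sample far from the others (Dixon's gap test), 10 had one. Chance gives about 1 in 20 where sets are independent. These sets were not, as they hold 6 keratins and ratios of the same keratins in the same libraries. The 10 sets therefore cannot be set against that share. Of these, 6 were Healthy B, which was the highest of its group for Krt5 at 3432 CPM (next 2090), Krt14 at 3464 (1779), Krt1 at 2231 (1057), Krt10 at 4703 (2956) and Krt77 at 8017 (4877), and for the Krt1 to Krt10 ratio at 0.336 (0.267). The other 4 were single values. Systemic JAK1i F had the highest Krt5 of its group, at 2349 CPM (next 1873), and Systemic JAK1i B the highest Krt1 to Krt5 ratio, at 0.712 (0.529). The Krt5 to Krt14 ratio was highest in AA C at 0.563 (next 0.457) and lowest in 8w off Tx E at 0.605 (next 0.685).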

How the results depend on the processing

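Of 969 values of the 6 keratins under alternatives, 814 kept their direction and their side of the threshold, as did 405 of the 432 with 1 library left out. RLE scaling and scaling without Krt and Krtap genes changed none of the 36. Krt14 and Krt1 in Systemic JAK1i against AA, and Krt14, Krt1 and Krt2 in AA against Healthy, passed whichever single library was left out.

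The largest movements came from TPM with no centring, where the median of all genes at a pseudocount of 1 was -0.22 (AA against Healthy), 0.51 (Systemic JAK1i against AA), 0.27 (Systemic JAK1i against Healthy), -0.61 (8w off Tx against Healthy), -0.39 (8w off Tx against AA) and -0.92 (8w off Tx against Systemic JAK1i). There, at a pseudocount of 1 with and without the filter and at 0.1, Systemic JAK1i against AA was 0.52 for Krt5 and 0.54 for Krt10, and Systemic JAK1i against Healthy was 0.092 for Krt5, 0.36 for Krt1, 0.088 for Krt10 and 0.068 for Krt77. 8w off Tx against Healthy was -0.70 for Krt5, -0.52 for Krt14 (-0.53 at 0.1) and -0.41 for Krt1 (-0.42 at 0.1). 8w off Tx against AA was -0.27 for Krt5 and -0.59 for Krt77, and 8w off Tx against Systemic JAK1i was -0.79 for Krt5, -0.51 for Krt14, -0.78 for Krt1 and -0.057 for Krt2 (-0.13 at 0.1). Krt14 in AA against Healthy (0.35) and Krt14 (-0.37) and Krt1 (-0.44) in Systemic JAK1i against AA kept their direction and did not pass. Genes called in AA against Healthy were 2886, with 694 higher and 2192 lower (2628 at 0.1, 2641 unfiltered), against 6533 by edgeR with 3394 higher and 3139 lower. Those of Systemic JAK1i against Healthy were 455, 441 of them higher (301 unfiltered), of 8w off Tx against Healthy 11492, 325 higher (11669 at 0.1, 12324 unfiltered), of 8w off Tx against AA 978, 5 higher (1074 and 387) and of 8w off Tx against Systemic JAK1i 14181, 271 higher (14142 and 18860). Those of Systemic JAK1i against AA were 9642, with 8962 higher and 680 lower. Keratins called were 3 in Systemic JAK1i against AA, all higher, and 5 in 8w off Tx against Healthy, 5 against Systemic JAK1i and 3 against AA (2 unfiltered), all lower. Centred on library medians, TPM gave Krt10 0.0100 in Systemic JAK1i against AA, Krt1 0.053 in Systemic JAK1i against Healthy, Krt5 -0.059 in 8w off Tx against Healthy, and Krt2 0.26 and Krt77 -0.17 in 8w off Tx against AA (347 genes), with 2 keratins called in 8w off Tx against Healthy and 2 against Systemic JAK1i. The 2 against Healthy were lower, and those against Systemic JAK1i were 1 higher and 1 lower.

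Genes called in Systemic JAK1i against Healthy (170 by edgeR) were 602 by DESeq2, 399 by limma-voom, 286 in a fit of the 2 groups, 105 with no filter, 12 without Healthy A and E, 280 without 8w off Tx A and E, 382 without these and Healthy B, and 51 without Healthy B and C. Those of 8w off Tx against AA (222) were 628 by DESeq2, 18 in a fit of the 2 groups, 111 with no filter, 122 without 8w off Tx A and E and 334 without Healthy B and C. Keratins called were 2 of 6 in AA against Healthy in a fit of the 2 groups and without Healthy A and E, and 0 in Systemic JAK1i against Healthy by limma-voom and without Healthy A and E. In 8w off Tx against Healthy they were 2 by DESeq2 and without Healthy B and C, and 3 without 8w off Tx A and E, with or without Healthy B. In 8w off Tx against Systemic JAK1i they were 2 by DESeq2, limma-voom, a fit of the 2 groups and without Healthy B and C, all higher. Without 8w off Tx A and E there was 1, which was lower. They were 3 without Healthy B and 8w off Tx A and E, 1 higher and 2 lower. That fit also gave 1, lower, in 8w off Tx against AA. Leaving out A and E, the libraries highest in Krt1, Krt10 and Krt77, lowers their group by construction. The cause was not tested.

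Changes of sign of small values followed. Krt77 in 8w off Tx against AA was -0.0025 in a fit of the 2 groups, -0.028 by limma-voom and -0.42 without 8w off Tx A and E, with or without Healthy B. Krt1 in Systemic JAK1i against Healthy was 0.042 by limma-voom, 0.25 without Healthy B and 8w off Tx A and E and 0.23 without Healthy B and C. These last fits gave 0.043 and 0.052 for Krt5 and 0.079 and 0.081 for Krt10 in AA against Healthy. Without 8w off Tx A and E, Krt5 was -0.024 and Krt1 -0.10 in 8w off Tx against Healthy, and Krt1 -0.032 in 8w off Tx against Systemic JAK1i, with or without Healthy B.

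With 1 library left out, genes called ranged from 5724 to 7110 in AA against Healthy, 7000 to 7774 in Systemic JAK1i against AA, 49 to 704 in Systemic JAK1i against Healthy, 4514 to 6025 in 8w off Tx against Healthy, 68 to 493 in 8w off Tx against AA and 5074 to 6052 in 8w off Tx against Systemic JAK1i. Keratins called ranged from 3 to 4, 2 to 2, 1 to 1, 1 to 3, 0 to 0 and 1 to 2 in the same order. Signs changed for small values: ranges were -0.23 to 0.038 (Krt5) and -0.27 to 0.073 (Krt10) in AA against Healthy, -0.14 to 0.26 (Krt1) in Systemic JAK1i against Healthy, -0.56 to 0.28 (Krt2) and -0.22 to 0.13 (Krt77) in 8w off Tx against AA and -0.28 to 0.048 (Krt10) in 8w off Tx against Systemic JAK1i.

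Same-letter correlations of deviations were between -0.24 and 0.41, and at most 2 of 6 libraries correlated best with their own letter. For 8w off Tx and Systemic JAK1i, the groups from the same mice, they were between -0.22 and 0.38, with 1 of 6 best with its own letter. Samples taken 8 weeks apart, on and off treatment, may differ within a mouse, so these values cannot tell whether letters mark mice. With the letter as a replicate block, 104 genes were called in Systemic JAK1i against Healthy, Krt2 was 0.0067 and Krt77 -0.020 in 8w off Tx against AA, and Krt77 in AA against Healthy was -0.61 (edgeR, adjusted p = 0.088). Depth limits Krt2, with 1 to 31 counts a library outside Healthy skin.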
